A study of Mus musculus with 12 samples.

Results

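The 10 genes described here act in bringing fatty acids from the blood or medium into the cell and preparing them for use. Among them is Angptl4, which encodes an inhibitor of lipoprotein lipase. They were chosen by symbol, as the rows of the deposited table of 24341 genes named Lpl, Angptl4, Cd36, Slc27a1, Slc27a4, Fabp4, Fabp5, Acsl1, Acsl3 and Acsl4, and all 10 were found. RNA was sequenced from 12 libraries of SV40-immortalised cells from adipose tissue of C57Bl/6 mice, 3 in each of 4 groups. Aclyf/f preadipocytes and Acly-/- preadipocytes were sampled on day 0, and Aclyf/f adipocytes and Acly-/- adipocytes on day 4 after an adipogenic cocktail containing rosiglitazone, an agonist of the nuclear receptor PPAR-gamma, was added to confluent cells in DMEM with serum. Acly encodes ATP citrate lyase, which makes cytosolic acetyl-CoA, the building block of fatty acid synthesis. Aclyf/f cells carry the gene flanked by loxP sites, so these controls are floxed cells and not wild type. All 4 groups share the immortalising SV40 sequence, and both adipocyte groups received rosiglitazone. Changes on differentiation are thus between day 0 and day 4 cells, and stage and exposure to the cocktail cannot be told apart in them. The sources used here do not say how Acly was deleted or what separates the numbered libraries (culture, clone or animal), so p-values measure only the spread between these libraries, which may be technical.

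Fat cells take up fatty acids in steps. Lipoprotein lipase, secreted by the adipocyte, frees fatty acids from circulating triglyceride and is held in check by ANGPTL4. The membrane protein CD36 and the transport proteins of the SLC27 family bring the acids in, the binding proteins FABP4 and FABP5 carry them through the cytosol, and long-chain acyl-CoA synthetases of the ACSL family join them to coenzyme A, which commits them to storage or oxidation. Several of these genes, among them Cd36, Lpl, Fabp4, Angptl4 and Acsl1, are well-known targets of PPAR-gamma.

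Levels are FPKM (fragment counts scaled to transcript length and to the library's mapped fragments), which can be set side by side between genes. Folds are ratios of mean FPKM, ± marks the SD over n = 3 libraries, and log2 fold changes with their SE are on the log2(FPKM + 1) scale of the limma fit, which understates changes of low genes. Adjusted p-values are from limma over the 11777 genes tested, all 10 genes among them, and a change was called where the adjusted p was under 0.05. The deepest library held about 1.93 times the fragments of the shallowest, as estimated from the steps of low values, and each library had 10977 to 11143 genes at 1 FPKM or more. Acly stood at 84.9 to 89.5 FPKM in Aclyf/f and 11.9 to 12.5 FPKM in Acly-/- preadipocytes, and at 722 to 814 and 11.02 to 13.2 FPKM in the adipocytes, as the labels require. Of 6 adipocyte markers, 5 passed 1 FPKM in both adipocyte groups, while Lep was listed at the 0.01 floor throughout. Their summed level was 2221 to 2462 FPKM in Aclyf/f and 391 to 436 FPKM in Acly-/- adipocytes, against 4.75 to 5.94 FPKM in preadipocytes of both genotypes. The 5 differed unequally between the adipocyte groups. With and without Acly, means were 844.5 and 48.9 FPKM for Retn, 272 and 18.6 FPKM for Cfd and 544 and 60.7 FPKM for Adipoq. For Cidec they were 448.5 and 181 FPKM, and for Plin1 195.5 and 98.4 FPKM. The 6 preadipocyte markers together stood at 641 to 744 FPKM in preadipocytes with Acly and 834 to 1155 FPKM without, and at 134 to 199 and 692 to 738 FPKM in adipocytes. Most of that sum was Ly6a, at 466.5 ± 60.9 and 834 ± 165 FPKM in preadipocytes and 128 ± 34.2 and 649 ± 27.1 FPKM in adipocytes. Pdgfra went the other way in preadipocytes, at 131 ± 8.63 with and 72.1 ± 7.08 FPKM without Acly, and fell on differentiation to 15.5 ± 0.406 and 30.3 ± 2.173 FPKM (adjusted p = 1.11e-12 and 2.97e-08). Pdgfrb likewise fell, from 87.4 ± 1.25 and 104 ± 5.48 to 12.4 ± 1.24 and 34.6 ± 4.36 FPKM (adjusted p = 7.74e-12 and 5.95e-09). Dlk1, Cd34 and Thy1 were too low to be tested, with group means of at most 0.321, 1.08 and 0.54 FPKM. Cd34 did not follow Ly6a: with Acly its mean was 0.989 FPKM in preadipocytes and 1.08 FPKM in adipocytes, and in adipocytes without Acly 0.398 FPKM. In these bulk libraries, fewer adipocytes and less RNA per adipocyte cannot be told apart, and the part of these marker levels in the results below was not tested.

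Macrophages also express Fabp4, Fabp5, Cd36 and Lpl. Of 9 macrophage markers, Ptprc, Itgam, C1qa and Tyrobp were at the 0.01 floor in all 12 libraries and Adgre1 reached at most 0.0292 FPKM. The summed level of the list was 1.42 to 4.29 FPKM in the other 3 groups and 29.4 to 34.6 FPKM in Acly-/- adipocytes, where Cd68 alone gave 29.0 to 34.4 FPKM. Endothelial markers summed to at most 2.23 FPKM in any library, with Cdh5 and Tie1 at the floor, and skeletal muscle markers to at most 6.0 FPKM, with Myod1, Myog, Ckm and Myh1 at the floor. Mesothelial markers summed to at most 6.39 FPKM, most of it from Krt19, with Krt8 and Wt1 at the floor. Together the 10 genes made up 0.219% to 0.239% of summed FPKM in preadipocytes with Acly and 0.118% to 0.153% without it. In adipocytes these shares were 1.94% to 2.22% and 1.25% to 1.45%. Most of the adipocyte share was Fabp4 alone, at 1.61% to 1.85% with Acly and 1.01% to 1.2% without. In preadipocytes Lpl and Fabp4 had the highest means of the 10, at 524 and 507 FPKM with Acly and 429 and 201 FPKM without.

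The promoters of the genes whose changes differ most in kind are shown for comparison: Cd36, with the largest rise on differentiation, Acsl1, which rose less without Acly, and Acsl3, which was higher without Acly already before differentiation. The sequences are from RefSeq (build GRCm38.p6, the same primary assembly as mm10), from 250 bases before to 50 bases after an annotated start, written 5′ to 3′ on the gene's strand. Capitals mark the nuclear receptor motif AGGTCA, the GC box GGGCGG and the CCAAT box, each on either strand. The Cd36 start lies inside the gene's span, which on the minus strand begins at 17888959, and the table holds no other start of it.
Cd36, internal start, chr5:17835847-17836146, minus strand: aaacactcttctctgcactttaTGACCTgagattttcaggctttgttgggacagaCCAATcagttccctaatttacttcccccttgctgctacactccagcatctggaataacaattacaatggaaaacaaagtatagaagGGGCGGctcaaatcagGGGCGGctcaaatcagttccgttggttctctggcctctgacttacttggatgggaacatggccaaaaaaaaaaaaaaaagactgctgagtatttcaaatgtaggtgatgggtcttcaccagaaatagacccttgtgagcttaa
Acsl1, upstream start, chr8:46470787-46471086, plus strand: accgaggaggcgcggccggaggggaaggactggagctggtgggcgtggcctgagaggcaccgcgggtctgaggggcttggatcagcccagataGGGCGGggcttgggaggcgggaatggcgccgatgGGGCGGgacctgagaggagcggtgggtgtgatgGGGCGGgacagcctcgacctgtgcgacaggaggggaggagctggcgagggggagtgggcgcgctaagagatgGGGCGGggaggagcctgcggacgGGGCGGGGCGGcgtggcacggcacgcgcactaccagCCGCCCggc
Acsl1, downstream start, chr8:46490716-46491015, plus strand: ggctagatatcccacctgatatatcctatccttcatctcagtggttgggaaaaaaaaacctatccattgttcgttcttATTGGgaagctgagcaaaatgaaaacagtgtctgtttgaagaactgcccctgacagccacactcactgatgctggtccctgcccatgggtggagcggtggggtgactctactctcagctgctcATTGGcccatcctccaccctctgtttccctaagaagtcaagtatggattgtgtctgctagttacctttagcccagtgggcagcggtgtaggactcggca
Acsl3, chr1:78657575-78657874, plus strand: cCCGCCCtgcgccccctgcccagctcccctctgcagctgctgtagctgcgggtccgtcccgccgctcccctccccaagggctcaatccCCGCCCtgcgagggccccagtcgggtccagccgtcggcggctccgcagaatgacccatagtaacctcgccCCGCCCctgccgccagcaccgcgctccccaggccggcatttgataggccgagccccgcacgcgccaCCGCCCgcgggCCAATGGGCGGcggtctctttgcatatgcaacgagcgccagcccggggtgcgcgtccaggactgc
Of the 10 genes, 6 matched the promoter table, with 9 starts in all. Fabp4, Fabp5, Lpl and Angptl4 have no entry in it. AGGTCA was found only in the Cd36 window among these 9, with its first base at position -228 relative to the start, and occurs in 16.3% of all 32817 promoters of that length. A direct repeat of AGGTCA with 1 base between the copies, the form bound by PPAR with RXR, was in none of the 9 and in 0.0396% of all promoters. GC boxes were in 7 of the 9 windows and in 35.6% of all promoters, with 7 copies at the upstream Acsl1 start, 5 at Acsl3 and none at the downstream Acsl1 start. CCAAT was in 5 of the 9 windows and 37.4% of all. The sterol regulatory motif TCACNCCA was found at the downstream Acsl1 start alone and in 4.36% of all promoters, and the C/EBP motif TTGCNNAA and the TATA motif TATAAA were in none of the 9. The GC content was 43.0% for Cd36, 74.0% for the upstream and 50% for the downstream Acsl1 start and 74.0% for Acsl3, beside a median of 52.7% over all promoters. A match describes letters in the window and shows neither binding nor use of that start.

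Before differentiation, most of the 10 genes were lower without Acly. The same did not hold for further genes of uptake, binding and activation, given below. In preadipocytes 6 of the 10 were called lower (Lpl, Angptl4, Cd36, Slc27a1, Fabp4 and Fabp5), against 22.4% of all genes tested, and 1, Acsl3, was called higher, against 19.7%. The median log2 fold change of the 10 was -0.39, and that of all genes tested -0.01. After 4 days of differentiation, 8 of the 10 were called lower without Acly (all but Slc27a1 and Acsl3), against 29.2% of all genes, and none was called higher, against 25.6%. Their median was -0.43, and -0.02 over all genes. The count of 8 was 5 when Acly-/- adipocyte library 2 was left out and 5 with no filter on low values, since Lpl, Angptl4 and Acsl4 lost their calls in both settings. The share of rises among all genes called is sensitive to scaling, at 46.8% in preadipocytes and 46.7% in adipocytes but 34.7% and 36.4% once every library was set to an equal FPKM sum, which moved the median of all genes by -0.08 and -0.07. Under that scaling 7 and 8 of the 10 genes were called, but in adipocytes Slc27a1 gained its call (adjusted p = 0.0265) and Acsl4 lost it (0.0508).

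On differentiation Lpl, Cd36, Fabp4, Fabp5 and Acsl1 rose in both genotypes and Angptl4 fell in both. In Aclyf/f cells 6 rose (Lpl, Cd36, Fabp4, Fabp5, Acsl1 and Acsl3), against 36.5% of all genes, and Angptl4 fell, against 36.0%. In Acly-/- cells 5 rose (the same but for Acsl3), against 30.4%, and 3 fell (Angptl4, Slc27a4 and Acsl4), against 31.0%. The difference between both differentiation contrasts was called in 6 genes. It was positive in Fabp4 and Angptl4, against 23.7% of all genes, and negative in Slc27a4, Acsl1, Acsl3 and Acsl4, against 26.4%, so the total of 6 is near the share over all genes. The contrasts share groups, so they are not independent of each other: the Aclyf/f adipocytes, for example, enter both the adipocyte comparison of genotypes and differentiation with Acly.

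**Figure D1:**
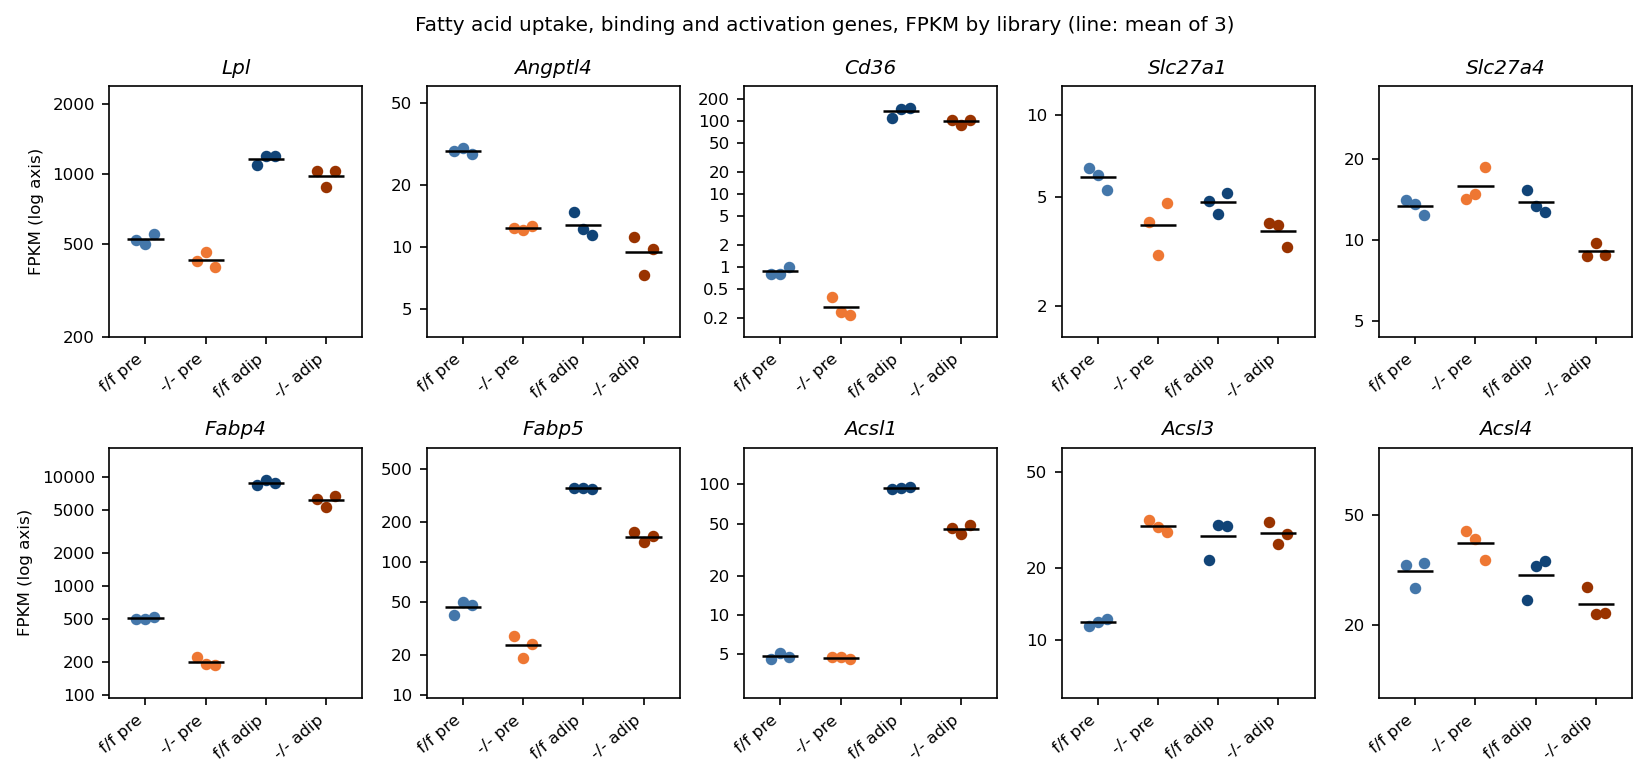
FPKM of the 10 genes on log axes, 1 point per library and a line at the mean of 3, for Aclyf/f (f/f) and Acly-/- (-/-) preadipocytes (pre) and adipocytes (adip). Fabp4 spans 187 to 9282 FPKM and Cd36 0.222 to 151 FPKM, while Slc27a1 stays between 3.09 and 6.40 FPKM.

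Lpl encodes lipoprotein lipase (chromosome 8, 68880555 to 68906932, mm10). It was at 519, 499.9 and 553 FPKM in preadipocytes with Acly and 425, 463 and 399.7 FPKM in those without. In adipocytes it was at 1096, 1193 and 1199.8 FPKM with Acly and 1038, 879 and 1037 FPKM without. The groups did not overlap at either stage, yet the genotype differences were small beside the rise on differentiation. Lpl was 1.22-fold lower without Acly in preadipocytes (log2 fold change -0.29, SE 0.09, adjusted p = 0.0170) and 1.18-fold lower in adipocytes (-0.24, SE 0.09, adjusted p = 0.0295). The preadipocyte call was lost on leaving out library 3 of either genotype at that stage (adjusted p = 0.0701 without the Aclyf/f and 0.0586 without the Acly-/- library). The adipocyte call was lost without Aclyf/f adipocyte library 2 (0.0892) or 3 (0.0900) or Acly-/- adipocyte library 2 (0.139), and with no filter (0.0738). On differentiation Lpl rose 2.22-fold with Acly and 2.29-fold without, and the difference between these rises was 0.04 on the log2 scale (SE 0.12, adjusted p = 0.781).

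Angptl4 encodes the secreted inhibitor of lipoprotein lipase (chromosome 17, 33774900 to 33781575). Its levels were 29.3, 30.3 and 28.4 FPKM in Aclyf/f preadipocytes, and 12.4, 12.1 and 12.7 FPKM in Acly-/- preadipocytes. In adipocytes they were 14.8, 12.3 and 11.4 FPKM with Acly and 11.2, 7.34 and 9.83 FPKM without. Aclyf/f preadipocytes thus stood apart from the other 3 groups, all of which lay under 15 FPKM. Angptl4 was 2.37-fold lower without Acly in preadipocytes (log2 fold change -1.18, SE 0.12, adjusted p = 5.5e-06) and 1.36-fold lower in adipocytes (-0.41, SE 0.12, adjusted p = 0.0114). The adipocyte call was lost without Aclyf/f adipocyte library 1 (0.0536) or Acly-/- adipocyte library 2 (0.0544), and with no filter (0.0530). Angptl4 fell 2.29-fold on differentiation with Acly (adjusted p = 1.52e-06) and 1.31-fold without (adjusted p = 0.0172, and 0.0871 without Acly-/- adipocyte library 2 or 0.0671 with no filter). The fall was smaller without Acly by 0.76 on the log2 scale (SE 0.17, adjusted p = 0.00271). Set against its target enzyme, Angptl4 came to 5.61% ± 0.466 (SD, n = 3) of the Lpl level in Aclyf/f and 2.90% ± 0.286 in Acly-/- preadipocytes, and to 1.11% ± 0.213 and 0.953% ± 0.121 in adipocytes. The preadipocyte values did not overlap (exact permutation p = 0.1, the smallest that 3 against 3 libraries can give, and 0.114 adjusted over 24 such comparisons), and the adipocyte values did (exact p = 0.4).

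Cd36 encodes the fatty acid translocase (chromosome 5, 17781690 to 17888959). It was near the detection limit in preadipocytes, at 0.809, 0.803 and 1.01 FPKM with Acly and 0.386, 0.243 and 0.222 FPKM without, which corresponds to about 14.7 to 34.9 and 4.6 to 14.0 fragments per library for its shortest (2564 bases) and longest (3399 bases) GENCODE transcript. In adipocytes it reached 111, 144 and 151 FPKM with Acly and 105, 88.6 and 104 FPKM without. The genotypes did not overlap at either stage. Cd36 was 3.08-fold lower without Acly in preadipocytes (log2 fold change -0.55, SE 0.11, adjusted p = 0.00175) and 1.37-fold lower in adipocytes (-0.44, SE 0.11, adjusted p = 0.00493). It rose 155-fold on differentiation with Acly and 349-fold without, the largest rise among the 10 in both genotypes. Whether these rises differ depends on how low values are weighted: the difference was 0.10 (SE 0.16, adjusted p = 0.613) on the log2(FPKM + 1) scale and 0.92 (adjusted p = 0.00532) with a pseudocount of 0.1. In FPKM, the increase without Acly was 73.2% of that with Acly.

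Slc27a1 encodes the insulin-responsive fatty acid transport protein FATP1 (chromosome 8, 71568927 to 71586708), the lowest of the 10 in both adipocyte groups. A stretch of 167 bases is 95.2% identical to Slc3a2, which is also in the table, so the Slc27a1 level is uncertain to that extent. It was at 6.40, 6.02 and 5.33 FPKM in preadipocytes with Acly and 4.07, 3.09 and 4.76 FPKM in those without, 1.49-fold lower (log2 fold change -0.49, SE 0.12, adjusted p = 0.00642). In adipocytes it was at 4.86, 4.36 and 5.18 FPKM with Acly and 4.05, 3.96 and 3.29 FPKM without, a difference that missed the threshold (-0.28, SE 0.12, adjusted p = 0.0664) although the libraries did not overlap. It passed with equal FPKM sums (0.0265), in a fit of the adipocyte groups alone (0.0384) and without Acly-/- preadipocyte library 2 (0.0321) or 3 (0.0405). No change on differentiation was called in either genotype (adjusted p = 0.0793 with and 0.736 without Acly). With Acly the fall of 0.25 on the log2 scale passed with quantile normalization (0.0460), in a fit of the Aclyf/f groups alone (0.0386) and without Acly-/- preadipocyte library 2 (0.0396).

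Slc27a4 encodes FATP4 (chromosome 2, 29802680 to 29817522), which also has acyl-CoA synthetase activity. Its levels were 14.0, 13.5 and 12.4 FPKM in Aclyf/f preadipocytes, 14.2, 14.8 and 18.7 FPKM in Acly-/- preadipocytes, and in adipocytes with Acly 15.3, 13.4 and 12.7 FPKM. Adipocytes without Acly had 8.71, 9.70 and 8.79 FPKM, below every other library. Slc27a4 was 1.52-fold lower without Acly in adipocytes (log2 fold change -0.55, SE 0.10, adjusted p = 0.000552), while in preadipocytes the difference missed the threshold (0.23, SE 0.10, adjusted p = 0.0922, but 0.0488 without Acly-/- preadipocyte library 1). It fell 1.75-fold on differentiation without Acly (adjusted p = 3.39e-05), and the change with Acly was not called (0.05 on the log2 scale, adjusted p = 0.704). The difference between both differentiation contrasts was -0.78 (SE 0.15, adjusted p = 0.000698). Slc27a1 made up 30.7% ± 0.612 of the summed FPKM of both transporters in Aclyf/f and 19.9% ± 2.53 in Acly-/- preadipocytes, without overlap, and 25.9% ± 2.68 and 29.3% ± 2.28 in adipocytes, with overlap (exact permutation p = 0.1 and 0.2).

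Fabp4 encodes the adipocyte fatty acid binding protein aP2 (chromosome 3, 10204343 to 10208576). In Aclyf/f adipocytes it stood at 8492, 9282 and 8733 FPKM, the highest value of any gene in each of those 3 libraries and 1.61% to 1.85% of summed FPKM. Acly-/- adipocytes had 6278, 5343 and 6718 FPKM, at rank 2, 4 and 3. Preadipocytes had 503, 499.7 and 517 FPKM with Acly and 224, 191 and 187 FPKM without. The 4 groups did not overlap. Fabp4 was 2.52-fold lower without Acly before differentiation (log2 fold change -1.33, SE 0.10, adjusted p = 1.88e-07) and 1.45-fold lower after it (-0.54, SE 0.10, adjusted p = 0.00038). It rose 17.4-fold with Acly and 30.5-fold without, so the rise was larger without Acly by 0.80 on the log2 scale (SE 0.14, adjusted p = 0.000331), from a lower start and to a lower end. In FPKM, the increase without Acly was 71.0% of that with Acly.

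Fabp5 encodes the epidermal fatty acid binding protein (chromosome 3, 10012585 to 10016610), near Fabp4 on the same chromosome. It was at 40.1, 50.2 and 47.7 FPKM in preadipocytes with Acly and 27.8, 19.1 and 24.5 FPKM in those without. In adipocytes it was at 363, 364 and 358 FPKM with Acly and 168, 141 and 158 FPKM without. The genotypes did not overlap at either stage. Fabp5 was 1.93-fold lower without Acly in preadipocytes (log2 fold change -0.93, SE 0.12, adjusted p = 3.54e-05) and 2.32-fold lower in adipocytes (-1.22, SE 0.12, adjusted p = 1.84e-06). It rose 7.87-fold with Acly and 6.54-fold without, a difference of -0.28 (SE 0.17, adjusted p = 0.178) that was called, among the settings tried, only without Acly-/- preadipocyte library 2 (-0.43, adjusted p = 0.0234). In FPKM, the increase without Acly was 41.7% of that with Acly. GENCODE lists the processed pseudogenes Gm6166 and Gm14328, whose sequence is 98.3% and 97.3% identical to Fabp5 over 409 and 408 bases, and the handling of fragments that match several places is not stated, so the Fabp5 level is uncertain to that extent. Fabp4 made up 96.1% ± 0.162 of the FPKM of both binding proteins in Aclyf/f and 97.5% ± 0.164 in Acly-/- adipocytes. These values did not overlap (exact permutation p = 0.1, and 0.114 adjusted over 24 comparisons). In preadipocytes the Fabp4 share was 91.7% ± 0.879 with and 89.4% ± 1.32 without Acly, with overlap (exact permutation p = 0.2).

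**Figure D2:**
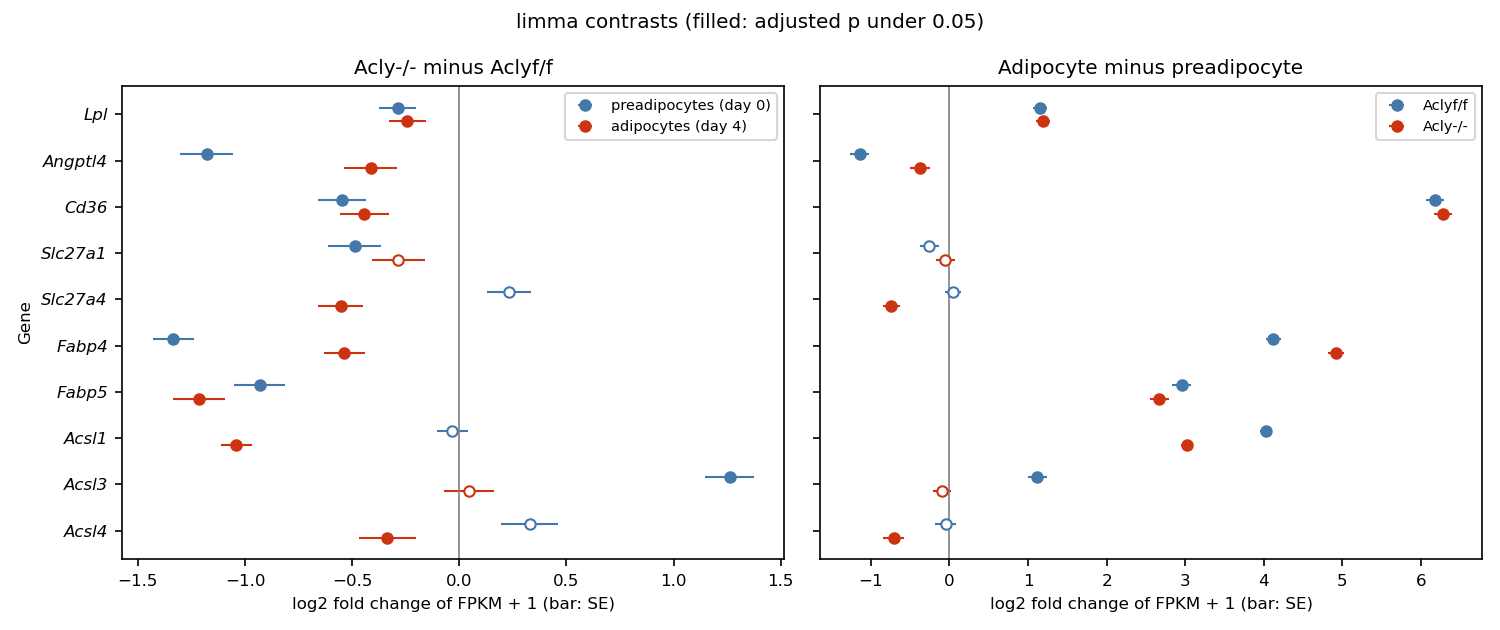
Log2 fold changes of the 10 genes with SE from limma, for loss of Acly at each stage (left) and for differentiation in each genotype (right). Filled points have an adjusted p under 0.05. On the left Acsl3 in preadipocytes (1.26) is the only filled point above 0.

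Acsl1 encodes the main long-chain acyl-CoA synthetase of mature adipocytes (chromosome 8, 46471037 to 46536051), with the 2 starts shown above among its annotated ones. GENCODE lists Gm45244 on the opposite strand over exon bases of Acsl1, and without a stated strand setting their fragments cannot be told apart. In preadipocytes it stood at 4.62, 5.14 and 4.73 FPKM with Acly and 4.73, 4.74 and 4.60 FPKM without, values that overlapped (log2 fold change -0.03, SE 0.07, adjusted p = 0.752). In adipocytes it was at 92.0, 94.6 and 96.0 FPKM with Acly and 46.0, 41.4 and 48.6 FPKM without. Acsl1 was 2.08-fold lower without Acly in adipocytes (log2 fold change -1.04, SE 0.07, adjusted p = 7.27e-08). Acsl1 rose 19.5-fold with Acly and 9.67-fold without, and the difference of -1.01 between these rises was called (SE 0.10, adjusted p = 4.09e-06). In FPKM, the increase without Acly was 45.5% of that with Acly.

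Acsl3 encodes a synthetase of the endoplasmic reticulum and lipid droplet (chromosome 1, 78657825 to 78707743). It was at 11.4, 11.9 and 12.2 FPKM in Aclyf/f preadipocytes and 31.8, 29.5 and 28.2 FPKM in Acly-/- preadipocytes. Adipocytes had 21.6, 30.1 and 29.9 FPKM with Acly and 30.9, 25.0 and 27.7 FPKM without. Aclyf/f preadipocytes stood below all other libraries, and Acly-/- preadipocytes overlapped both adipocyte groups. Acsl3 was 2.52-fold higher without Acly in preadipocytes (log2 fold change 1.26, SE 0.12, adjusted p = 1.71e-06), and in adipocytes no difference was called (0.04, SE 0.12, adjusted p = 0.765). It rose 2.3-fold on differentiation with Acly (adjusted p = 9.68e-07), the change without Acly was not called (-0.10 on the log2 scale, adjusted p = 0.485), and the difference was -1.22 (SE 0.16, adjusted p = 4.5e-05). Utp14b shares exon bases with Acsl3 on the same strand and has the same locus in the table, so fragments of the shared exons could be given to either. It stood at 2.40 to 5.64 FPKM over the 12 libraries, below Acsl3 in each group.

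Acsl4 encodes a synthetase that prefers arachidonic acid (chromosome X, 142317993 to 142390535). Its levels were 32.9, 27.3 and 33.6 FPKM in Aclyf/f preadipocytes and 43.5, 40.7 and 34.4 FPKM in Acly-/- preadipocytes. Adipocytes had 24.6, 32.8 and 33.9 FPKM with Acly and 27.4, 21.9 and 22.1 FPKM without, with overlap. The preadipocyte difference missed the threshold (log2 fold change 0.33, SE 0.13, adjusted p = 0.0636, but 0.0337 without Acly-/- preadipocyte library 3 and 0.0291 without Aclyf/f adipocyte library 1). The adipocyte difference was called narrowly (1.28-fold lower, -0.34, SE 0.13, adjusted p = 0.0469). That call was lost when preadipocyte library 1 (0.0535) or 3 (0.0503) with Acly or 2 (0.0573) without it, Aclyf/f adipocyte library 2 (0.148) or 3 (0.168) or Acly-/- adipocyte library 2 (0.142) or 3 (0.139) was left out, and with quantile normalization (0.103), median-of-ratios rescaling (0.0504), equal FPKM sums (0.0508), no variance trend (0.0546), a fit of the adipocyte groups alone (0.0604) or no filter (0.167). Acsl4 fell 1.66-fold on differentiation without Acly (log2 fold change -0.71, SE 0.13, adjusted p = 0.000396), the change with Acly was not called (-0.05, adjusted p = 0.764), and the difference was -0.66 (SE 0.19, adjusted p = 0.0103, but 0.0571 with no filter).

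The makeup of the 3 synthetases shifted with both stage and genotype. Their summed level was 47.9 ± 3.23 FPKM in preadipocytes with Acly and 74.1 ± 6.47 FPKM in those without, and 152 ± 11.9 and 97.0 ± 8.08 FPKM in adipocytes, so the order of the genotypes turned over. Among these 3, Acsl4 was the largest part in preadipocytes, at 65.1% ± 3.03 with Acly and 53.3% ± 1.79 without, and Acsl1 in adipocytes, at 62.2% ± 3.75 with Acly and 46.8% ± 2.67 without. The shares leave out Acsl5, given under other observations. In preadipocytes its mean was above that of Acsl4, at 35.2 against 31.3 FPKM with Acly and 53.6 against 39.5 FPKM without. In adipocytes it was below Acsl1 with Acly (40.9 against 94.2 FPKM) and above it without (61.8 against 45.4 FPKM). Acsl3 made up 24.8% ± 1.79 and 40.3% ± 1.38 in preadipocytes and 17.8% ± 1.9 and 28.7% ± 0.818 in adipocytes. In every library the Acsl3 part was larger without Acly than in any Aclyf/f library of the same stage, and the Acsl1 part smaller. Each of these genotype differences has an exact permutation p of 0.1, the smallest possible with 3 against 3, and 0.114 after adjustment over 24 comparisons, so none passes a threshold of 0.05.

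**Figure D3:**
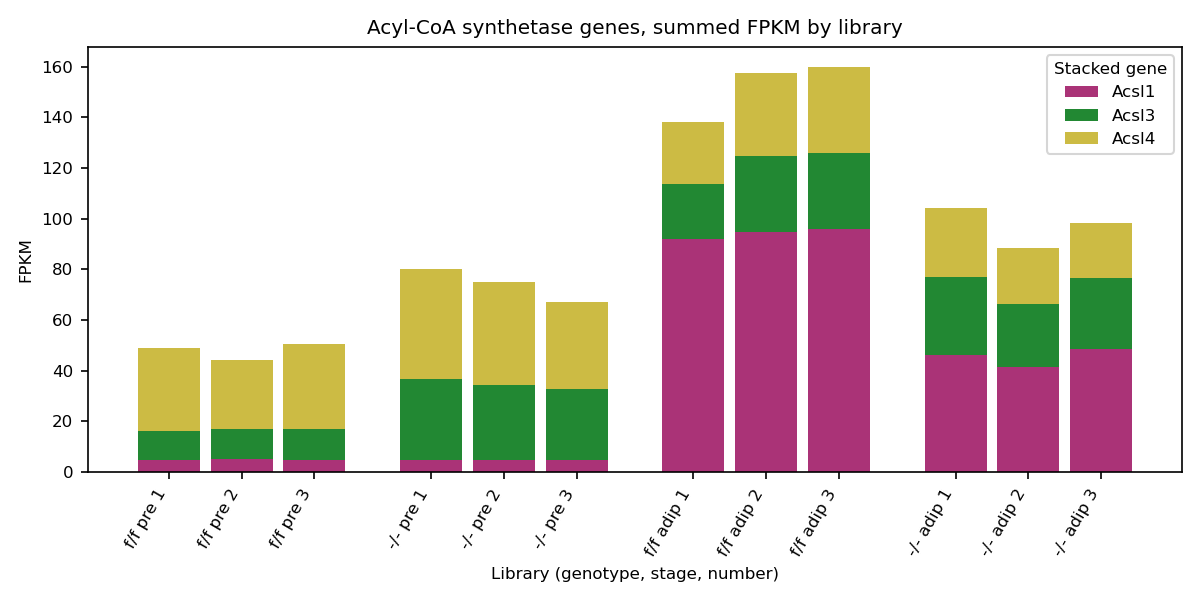
Stacked FPKM of Acsl1, Acsl3 and Acsl4 in each of the 12 libraries. The stacks reach 44.4 to 50.6 FPKM in Aclyf/f and 67.2 to 80.05 FPKM in Acly-/- preadipocytes, and 138 to 160 and 88.4 to 104 FPKM in adipocytes, where Acsl1 forms the largest block.

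Other genes of the same steps moved in both directions. Of 17 further genes of uptake in the table, 9 were tested. In preadipocytes 5 of these were called higher and 1 lower without Acly (median log2 fold change 0.45), and in adipocytes 3 higher and 4 lower (median 0.10). Beside these and the list counts that follow stand the shares over all genes, 19.7% higher and 22.4% lower in preadipocytes and 25.6% higher and 29.2% lower in adipocytes. The caveolin gene Cav1 was 2.32-fold higher in preadipocytes without Acly, at 192 ± 1.7 against 83.0 ± 8.04 FPKM (adjusted p = 1.37e-06). Gm6484, the older symbol of Angptl8, whose product acts with other angiopoietin-like proteins on lipoprotein lipase, was 4.44-fold lower in adipocytes without Acly, at 6.0 ± 1.06 against 26.7 ± 4.03 FPKM (adjusted p = 1.07e-07). The lipoprotein receptor gene Lrp1 was 1.83-fold higher there, at 188 ± 34.5 against 102 ± 2.38 FPKM (adjusted p = 2.82e-05). Gpihbp1, which anchors lipoprotein lipase on capillary endothelium, was listed at 0.01 FPKM in all 12 libraries.

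Of 16 further binding proteins, 8 were tested, with 2 higher and 2 lower in preadipocytes (median -0.01), near the shares over all genes, and 1 higher and 4 lower in adipocytes (median -0.27). The acyl-CoA binding protein Dbi, which holds the product of the synthetases, was 2.47-fold lower in adipocytes without Acly, at 492 ± 50.2 against 1214 ± 64.9 FPKM (adjusted p = 6e-08), and its relative Acbd4 at 14.4 ± 1.42 and 5.06 ± 0.416 FPKM (2.84-fold lower, adjusted p = 1.02e-07). In preadipocytes the retinoic acid binding protein Crabp2 was 4.04-fold higher and the brain-type binding protein Fabp7 4.35-fold lower without Acly (adjusted p = 0.000386 and 6.86e-05). Of 17 further genes of activation and acyl-CoA handling, 10 were tested. In preadipocytes 7 were higher and 1 lower (median 0.38), led by the mitochondrial thioesterase Acot2, at 1.00 ± 0.0692 against 5.72 ± 1.33 FPKM, and the synthetase Acsbg1, at 0.93 ± 0.226 against 3.21 ± 0.362 FPKM (adjusted p = 1.55e-07 and 8.71e-06). In adipocytes 3 were higher and 2 lower (median 0.02). There the short-chain synthetase Acss3 was 2.02-fold lower at 21.7 ± 4.05 FPKM, and Acsbg1 was at 0.0931 ± 0.0329 FPKM with and 1.1 ± 0.32 FPKM without Acly (adjusted p = 8.37e-06 and 2.85e-05).

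PPAR receptors, their RXR partners and their cofactors regulate many of these genes. Of 14 in the list, 12 were tested, with 1 higher and 5 lower in Acly-/- preadipocytes (median -0.09) and 1 higher and 6 lower in Acly-/- adipocytes (median -0.20). Pparg was at 47.3 ± 4.75 FPKM with Acly and 35.2 ± 1.24 FPKM without in preadipocytes (adjusted p = 0.00136). Adipocytes had 161 ± 1.18 and 148 ± 13.7 FPKM, a difference that was not called (log2 fold change -0.13, SE 0.08, adjusted p = 0.208). Cebpa, its partner in adipogenesis, was 2.36-fold lower in preadipocytes and 1.77-fold lower in adipocytes without Acly (adjusted p = 2.04e-05 and 0.000287). The coactivator gene Ppargc1b was at 3.45 ± 0.421 FPKM with and 1.16 ± 0.107 FPKM without Acly in adipocytes (adjusted p = 1.28e-06).

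Genes for making fatty acids and for the lipid droplet are the nearest programmes, and their medians are set beside those of the 10 genes. In preadipocytes 10 of 14 synthesis genes were higher without Acly and none lower (median 0.81), where the 10 uptake and activation genes had 1 higher and 6 lower (median -0.39). Scd2 and Fasn led, 4.63-fold and 3.43-fold higher (adjusted p = 1.99e-09 and 2.54e-07). In adipocytes 10 of 14 synthesis genes were lower and 1 higher (median -0.84), led by Thrsp and Mlxipl (47.2-fold and 13.2-fold lower, adjusted p = 1.7e-12 and 1e-11). Lipid droplet and lipolysis genes had 2 higher and 2 lower of 14 in preadipocytes (median 0.17), where the triglyceride synthesis gene Dgat2 was 2.78-fold higher and Plin4 1.67-fold lower. In adipocytes 9 were lower and none higher (median -0.90), led by the lipases Lipe and Pnpla2 (4.2-fold and 2.76-fold lower, adjusted p = 3.85e-09 and 8.86e-09). No test of the difference between lists was made.

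**Figure D4:**
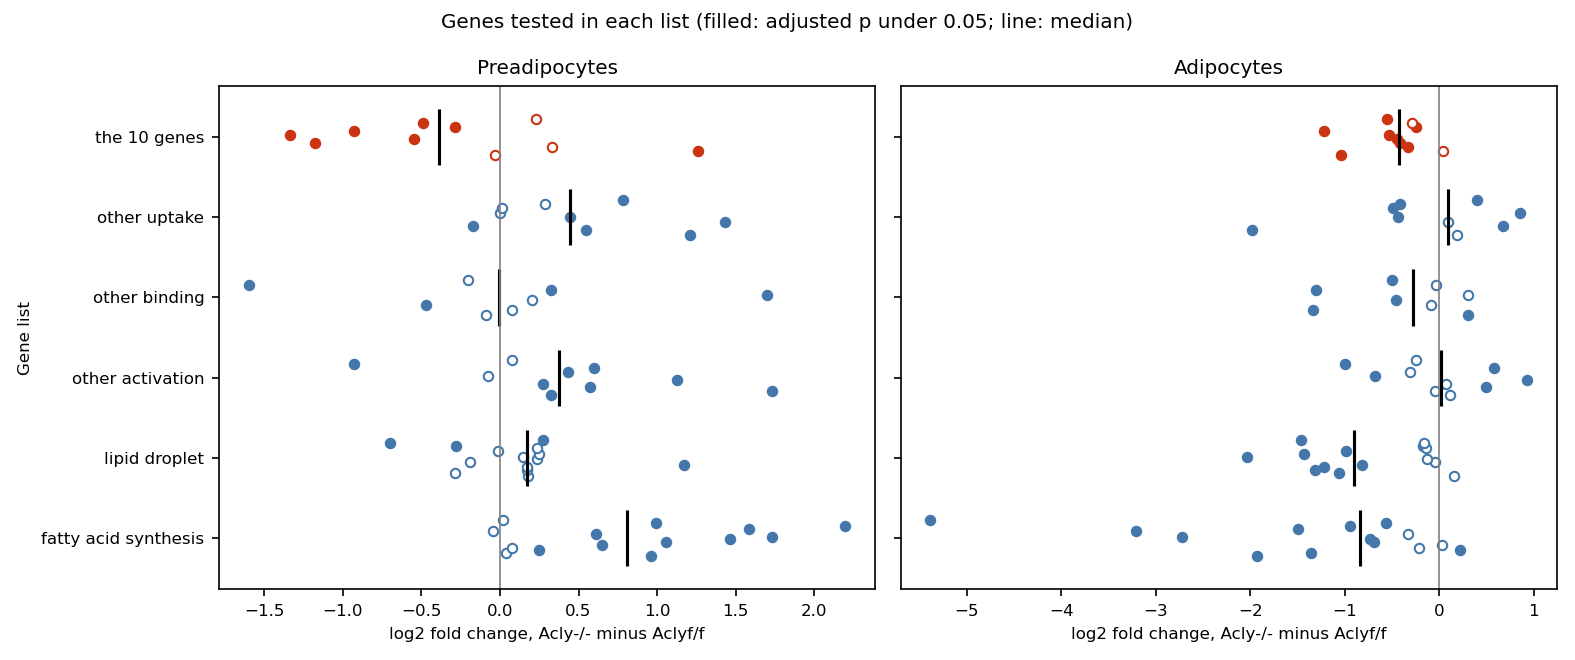
Log2 fold changes for loss of Acly in preadipocytes (left) and adipocytes (right), 1 point per gene tested, filled where the adjusted p is under 0.05, with a line at each list's median. The medians of the 10 genes are -0.39 and -0.43, those of fatty acid synthesis 0.81 and -0.84.

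Over the 12 libraries, the gene most like each of the 10 by Pearson's r of log2 values was Ctsc for Cd36 (r = 0.999), Nrbf2 for Lpl (0.992), H2afy2 for Angptl4 (0.968), Fam13a for Fabp4 (0.998), Apoc1 for Fabp5 (0.995), Dvl3 for Slc27a1 (0.921), Troap for Slc27a4 (0.967), Aldh1a7 for Acsl1 (0.999), Xpot for Acsl3 (0.972) and Phf10 for Acsl4 (0.939). These are descriptions over libraries that fall into 4 groups, which all pairs share. Apoc1, an apolipoprotein gene, went from 2.3 and 0.189 FPKM in Aclyf/f and Acly-/- preadipocytes to 287 and 42.2 FPKM in adipocytes. Xpot, which encodes an exporter of transfer RNA, went from 19.5 and 39.5 to 34.9 and 40.4 FPKM, with Aclyf/f preadipocytes lowest as for Acsl3.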

How the data were processed

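Per the file headers, the authors deposited 1 table of FPKM values with a column per library, a symbol and a locus. Build mm10 and the tools Cufflinks 2.2.1, Bowtie2 2.2.6 and bcl2fastq are listed, without roles, per the submitters' processing notes. The sources used here do not give the annotation, strand setting or treatment of multiply matching fragments. The lowest value is a floor of 0.01.

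Genes with at least 1 FPKM in 3 of 12 libraries (11777) were fitted on the log2(FPKM + 1) scale by limma 3.58.1 (R 4.3.3) with a mean for each of 4 groups and a variance trend, and adjusted by Benjamini-Hochberg within each of 5 contrasts. The fit was tested on simulated data. Depth was estimated from steps of FPKM under 0.3 and GENCODE transcript lengths. Alternatives changed the pseudocount, filter, scaling, variance trend, groups fitted and replicate block, and left out each library in turn. Near-identical copies were sought with BLAST 2.17.0. Family shares were tested by exact 2-sided permutation. Python 3.11.15 made the tables.

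The genes, lists and most tests were chosen with earlier results of these data known. Named beside the 10 genes are Acly, the 2 called genes of each list with the largest absolute log2 fold change for loss of Acly at each stage (1 of these is not reported here), the most alike gene per member, and, chosen after their values were seen, Acsl5, Vldlr, Utp14b, Gpihbp1 and the markers named. Deviations of same-numbered libraries correlated at over 0.1 in all 3 pairs between the 2 Acly-/- groups (0.123, 0.147 and 0.124) and in no other pair of groups. Over all groups 4 of 18 same-numbered and 10 of 36 differently numbered pairs exceeded 0.1, with highest values of 0.147 and 0.416, so same-numbered libraries were not more alike in general. The Acly-/- groups were singled out after the values were seen. Whether their libraries are paired is not settled by these values, and no label gives a pairing.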

Additional observations from a re-analysis of the deposited data

Results flagged for a closer look

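For 6 of the 10 genes the change on differentiation differed between genotypes by limma's test of the difference itself (Acly-/- minus Aclyf/f, log2 scale, 3 libraries per group). Over all genes tested, 23.7% were called higher and 26.4% lower in this contrast, so the count is near the background. Acsl3 (-1.22), Acsl1 (-1.01), Slc27a4 (-0.78) and Acsl4 (-0.66) had the lower value without Acly. Fabp4 (0.80) and Angptl4 (0.76) had the higher one, and both also had lower levels in Acly-/- than in Aclyf/f preadipocytes. Lpl, Cd36, Slc27a1 and Fabp5 were called lower in those preadipocytes too, and for them no difference between the differentiation contrasts was called.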

How the results depend on the processing

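The number of the 10 genes called was 7 for loss of Acly in preadipocytes, 8 in adipocytes, 7 and 8 for differentiation with and without Acly, and 6 for the difference of both differentiation contrasts. Of all 11777 genes tested, 4966, 6452, 8537, 7232 and 5908 were called, in the same order of contrasts. The 7 for differentiation with Acly and the 6 for the difference are near these shares over all genes. With no filter on low values the adipocyte count was 5, since Lpl, Angptl4 and Acsl4 lost their calls; the cause was not tested. Leaving out each library in turn gave counts of 6 to 8 in preadipocytes, 5 to 9 in adipocytes, 7 to 8 for each differentiation contrast and 6 to 7 for the difference. With a replicate block the counts were 7, 6, 7, 8 and 6, with Lpl (adjusted p = 0.0525) and Acsl4 (0.0714) losing their adipocyte calls, and a block within the 2 Acly-/- groups, chosen after seeing the data, also called 8 genes for differentiation without Acly. Signs turned over only in differences that were not called. Acsl3 in adipocytes was -0.035 with equal FPKM sums and -0.023 when small RNAs were also left out, a setting chosen after seeing the data. With quantile normalization Slc27a4 was -0.009 on differentiation with Acly, and Lpl -0.195 in the difference of contrasts. Over the libraries left out in turn, the log2 fold change ranged from -0.059 to 0.006 for Acsl1 in preadipocytes, from -0.107 to 0.124 for Acsl3 in adipocytes, from -0.027 to 0.099 for Slc27a4 and from -0.138 to 0.095 for Acsl4 on differentiation with Acly, from -0.186 to 0.061 for Slc27a1 on differentiation without Acly, and from -0.005 to 0.125 for Lpl and -0.031 to 0.188 for Cd36 in the difference of contrasts. Low depth limits Cd36 in preadipocytes, and 3 libraries a group limit every comparison.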

Other observations

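Acsl5, a further long-chain acyl-CoA synthetase gene outside the 10, was chosen for mention after its values were seen. It stood at 37.6, 33.5 and 34.4 FPKM in preadipocytes with Acly and 55.7, 52.9 and 52.4 FPKM in those without, and at 41.7, 40.8 and 40.2 FPKM with Acly and 60.7, 60.7 and 63.9 FPKM without in adipocytes. The gene was 1.53-fold and 1.51-fold higher without Acly at the 2 stages (log2 fold changes 0.60 and 0.58, SE 0.06, adjusted p = 6.8e-06 and 4.83e-06), and the difference between both differentiation contrasts was -0.01 (SE 0.09, adjusted p = 0.906). Vldlr, the very-low-density lipoprotein receptor gene, was likewise higher without Acly at both stages, at 4.72 ± 0.466 against 8.83 ± 0.309 FPKM in preadipocytes and 46.7 ± 2.36 against 62.0 ± 6.8 FPKM in adipocytes (adjusted p = 1.3e-05 and 0.00208).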
